A study of Mus musculus with 18 samples.

Results

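Lysosomal enzymes, lysosomal membrane proteins and the MiT/TFE transcription factors were followed through 18 libraries of mouse eosinophil RNA. The list holds 33 genes, chosen by name with earlier results of these data known. They comprise 8 cathepsins, 7 glycosidases and sulfatases, 6 genes of lipid degradation, 6 membrane proteins, 3 MiT/TFE factors, and the trio of *Gpnmb*, *Sqstm1* and *Grn*. Each Ensembl identifier in the files was matched to a member through the gene names of Ensembl 97 on GRCm38, and all 33 were found among the 55029 genes listed for the *E. coli* and IFN-γ libraries and the 54232 listed for the IL-4 libraries. All 33 also passed the filter on low counts, among 9883 and 10556 genes tested.

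Lysosomes are acidic compartments in which proteases, glycosidases and lipases degrade material taken up by phagocytosis or delivered by autophagy. TFEB, TFE3 and MITF bind an E-box motif shared by many promoters of lysosomal genes and raise their transcription when they enter the nucleus, which the kinase complex mTORC1 on the lysosomal surface holds back. Eosinophils are phagocytes as well as granulocytes, and their secretory granules have features of lysosomes.

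The cells came from the peritoneal cavity of C57BL/6 NJ.1638 Il5Tg mice, a line in which the CD3δ promoter drives IL-5 in T cells. All groups, controls included, therefore developed under constant excess of IL-5. Cells bearing Thy1.2 or B220 were removed with antibody-coated beads, which do not target macrophages, neutrophils or mast cells. Purity was checked by flow cytometry before use, and the remaining contaminants were described as mainly lymphocytes. The remaining cells were cultured for 18 h with heat-inactivated *E. coli*, with IFN-γ at 50 ng/ml, with both, or with IL-4 at 100 ng/ml, in 3 libraries each. There were 6 libraries of unstimulated cells, whose time in culture is not given, and neither the age nor the sex of the mice is stated. The samples of a group are described as biological replicates, but whether each came from a separate animal is not stated, so every p measures the spread between these samples, which may be technical.

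The libraries fall into 2 sets by file layout. Unstimulated a, b and c belong with *E. coli*, IFN-γ and their combination, and unstimulated d, e and f with IL-4. The files hold the whole-number counts of reads or molecules per gene that the authors deposited. Controls for a stimulus were those of the same set, except in an alternative that pooled them. Levels are counts scaled to library size by edgeR (CPM), which were not compared between genes, nor between sets except for the pooled controls. Calls of higher or lower expression rest on edgeR with an adjusted p under 0.05. The 3 comparisons with unstimulated a, b and c share those libraries and are therefore not independent. A level of 3 counts, taken as the floor for telling a gene from 0, equals 1.10 to 1.97 CPM in the first set and 0.463 to 0.828 CPM in the IL-4 set, for counting error alone, and every member lay above it in every library. Members rested on more counts than most genes: their median count per library was 273 in the first set, against 69.7 over all genes tested, and 666 against 100.2 in the IL-4 set. Well-counted genes pass the test at smaller changes, and the shares of members called are to be read with that in mind.

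The eosinophil label was checked against 10 marker genes. Their summed level was 4324 ± 709.6 CPM (SD, n = 3) in unstimulated a to c, 3389 ± 236 in *E. coli* libraries, 4041 ± 422 in those of IFN-γ and 3098 ± 192 in those of both, and it was 5489 ± 448 in unstimulated d to f and 5123 ± 103 with IL-4. *Alox15* or *Ccr3* was the most abundant marker in each of the 18 libraries. The granule protein genes *Epx* and *Prg3*, which mature eosinophils hardly transcribe, were at or near 0 in the first set, where a count of 0 was found for 1 of them in 8 of the 12 libraries. *Siglecf* averaged 1020.4 ± 127 CPM in unstimulated a to c and fell with *E. coli* by 0.68, with IFN-γ by 0.70 and with both by 1.55 on the log2 scale. With IL-4 it was called higher, at 0.39 (adjusted p = 0.0383), a call lost without unstimulated d or f or IL-4 1, 2 or 3 (log2 0.35 to 0.42 over all fits that left out a library). *Ear6*, in contrast, went up with *E. coli*, from 36.6 ± 8.57 to 87.5 ± 6.59 CPM. Of the 6 markers tested in the first set, 1 was higher and 2 lower with *E. coli*, 4 were lower with IFN-γ, and 1 was higher and 4 lower with both, while IL-4 raised 4 of 10 and lowered 1.

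Markers of other cells were present as well, and some moved with the stimuli. The summed level of 13 macrophage markers was 2905, 2903 and 2923 CPM in unstimulated a to c, 2169.7, 1969 and 2898 in *E. coli* 1 to 3, 3769, 3568 and 3994 in IFN-γ 1 to 3 and 3263, 3454 and 4193 in IFN-γ with *E. coli* 1 to 3. In the IL-4 set it was 4361, 4864 and 5483 in unstimulated d to f and 3317, 3259.6 and 3784 in IL-4 1 to 3. *Adgre1*, which mouse eosinophils also express, or *Lyz2* was the most abundant of the list in each library, and *Mrc1* was at 0 in unstimulated b and IFN-γ 1. The sum of 6 B cell markers, led by *Ighm*, averaged 177 ± 52.6 CPM in unstimulated a to c, 53.9 ± 19.7 with *E. coli*, 73.3 ± 23.3 with IFN-γ, 128 ± 6.50 with both, 30.7 ± 11.0 in unstimulated d to f and 64.9 ± 6.60 with IL-4. For 9 neutrophil markers the means were 41.3 ± 5.16, 167 ± 42.0, 72.8 ± 6.25, 88.5 ± 20.1, 22.1 ± 1.58 and 50.9 ± 14.5 CPM in the same order. The sum of 7 mast cell markers was 8.96 ± 1.61 CPM in unstimulated a to c, 21.3 ± 10.1 with IFN-γ, 18.2 ± 15.1 with *E. coli* and 65.6 ± 21.9 with the combination, and 8.05 ± 1.71 in unstimulated d to f and 16.4 ± 7.88 with IL-4. Of 2 tested, 1 was higher with IFN-γ (*Tpsb2*, lost without unstimulated a, b or c or IFN-γ 1, with log2 1.10 to 1.76 over all fits that left out a library) and 2 with the combination. The sums for T and NK cells (6.25 ± 2.84 CPM in unstimulated a to c) and for dendritic cells (8.69 ± 1.93 CPM) were low. For dendritic cells the sum was 5.93 ± 1.84 CPM in unstimulated d to f and 13.0 ± 5.15 with IL-4, where 1 of 2 tested markers was higher. In bulk RNA, fewer cells of a type and less RNA per cell cannot be told apart.

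A few libraries stood apart from the others of their group. Between unstimulated e and either d or f the counts differed with a chi-square per gene of 23.7 and 22.0, against 7.86 between d and f. Library 3 of the *E. coli* group differed from 1 and 2 with 3.76 and 4.60, while those differed from each other with 1.64. Library 3 with both stimuli was also the farthest of its group, at 6.04 and 5.02, against 2.66 between 1 and 2. Unstimulated b, a control in 3 comparisons, differed from a and c with 4.58 and 4.50, against 2.49 between a and c. Without it the members called higher and lower numbered 3 and 9 for *E. coli*, 13 and 6 for IFN-γ and 12 and 9 for the combination, and 53 of 58 calls were kept. The libraries numbered 3 of these 2 groups held the highest macrophage marker sums of their groups. They were also highest of 3 for *Cd68*, *Ctsb*, *Ctsc*, *Ctsl*, *Ctss*, *Gpnmb*, *Npc2* and *Psap*. The part of macrophage RNA in these values was not tested.

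With *E. coli* alone, more members were called lower than higher. It lowered 10 of 33 members (30.3%) where 16.7% of all genes tested were lower, and raised 3 of 33 (9.09%) where 13.5% of all genes were higher. The share of members that fell was thus above that of all genes, and the share that rose was below it. The median log2 fold change was -0.24 over members and -0.02 over all genes. *Gpnmb*, *Ctsa*, *Cd68*, *Gusb*, *Grn*, *Ctss*, *Psap* and *Hexa* were lower in every fit that left out 1 library of the groups compared. The calls of *Ctsb* and *Npc2* were not: that of *Ctsb* was lost without unstimulated a or c or *E. coli* 1 or 2 (log2 -0.51 to -0.35, adjusted p 0.0929 to 0.204), and that of *Npc2* without unstimulated b or *E. coli* 1 or 2 (log2 -0.40 to -0.36, adjusted p 0.0884 to 0.139). *Ctsb* was also not called in the fit of these 6 libraries alone, at -0.49 (adjusted p = 0.0503), or in a model of all 18, at -0.48 (adjusted p = 0.0528). On the higher side, *Galns* held in all 6 such fits. *Gm2a* lost its call without unstimulated a (log2 0.43, adjusted p = 0.0834) and *Sqstm1* without unstimulated a or *E. coli* 1 or 3 (log2 0.28 to 0.39, adjusted p 0.0542 to 0.121), so that without unstimulated a the members called higher numbered 1. Leaving out the divergent *E. coli* 3 gave 2 higher and 12 lower, *Ctsc* and *Ctsl* among them.

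IFN-γ acted on more members, and mostly upward. It raised 14 of 33 (42.4%), against 15.6% of all genes tested, and lowered 6 of 33 (18.2%), against 16.0%. The share raised was well above that of all genes, while the share lowered was close to it. The median log2 fold change of members was 0.29, against -0.03 for all genes. The calls of *Gla*, *Glb1*, *Gm2a*, *Lamp2*, *Lipa*, *Mitf*, *Sqstm1* and *Tfe3* held whichever library was left out. The rest of the higher members had log2 fold changes of 0.37 to 0.56 and each lost its call in some of these fits, *Ctsh* without unstimulated a or c or IFN-γ 1 or 3 (log2 0.30 to 0.40, adjusted p 0.0562 to 0.120), *Ctsz* without unstimulated a or IFN-γ 1 (log2 0.34, adjusted p 0.0859 to 0.0953), and *Ctsb*, *Ctsd*, *Ctss* and *Laptm4a* as given with these genes below. As a result, the count of higher members fell to 8 without unstimulated a and to 9 without IFN-γ 1 or IFN-γ 3.

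With both stimuli, 13 of 33 members (39.4%) were higher than in unstimulated cells, against 23.9% of all genes tested, and 9 of 33 (27.3%) were lower, against 25.2%. The lower share was near that of all genes, and the higher share above it. The medians were 0.22 for members and -0.04 for all genes. Those higher here and with IFN-γ alone numbered 11, and those lower in both of these comparisons numbered 6, namely *Ctsa*, *Grn*, *Gusb*, *Hexa*, *Neu1* and *Smpd1*. Both comparisons share unstimulated a to c. The share of all genes called in both is not given, so these numbers only list members. A change of 2-fold or more was reached by *Gla*, *Gm2a*, *Mitf* and *Sqstm1* among the higher members and by *Ctsa*, *Gusb*, *Hexa*, *Neu1* and *Smpd1* among the lower ones. Leaving out the divergent library 3 with both stimuli gave 9 higher and 9 lower.

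Set against *E. coli* alone, the combination raised 14 of 33 members (42.4%), against 17.5% of all genes tested, and lowered 3 of 33 (9.09%), against 15.3%. Members raised were thus a larger share than among all genes, and 7 of them (*Ctsb*, *Ctss*, *Gla*, *Gm2a*, *Gpnmb*, *Mitf* and *Sqstm1*) were raised 2-fold or more. Set against IFN-γ alone, the combination changed few. *Gpnmb* and *Sqstm1* were higher (2 of 33, 6.06%, against 6.25% of all genes) and *Lipa* and *Asah1* lower (2 of 33, 6.06%, against 5.98%), shares close to those of all genes. The number higher was 1 without any IFN-γ library and without IFN-γ with *E. coli* 2 or 3, and the number lower was 1 without IFN-γ 1 or IFN-γ with *E. coli* 1 or 2 and 4 without IFN-γ with *E. coli* 3. The medians of members were 0.29 and -0.21 in these comparisons, against -0.02 and 0.01 for all genes.

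IL-4 lowered 8 of 33 members (24.2%), against 4.35% of the genes tested in its set, and raised 1 of 33 (3.03%), which was *Grn*, against 5.97%. The share lowered was several times that of all genes, and the share raised was below it. The median was -0.24 for members and 0.00 for all genes. Of 13 macrophage markers, 6 were also lower with IL-4 (46.2%). None was higher by edgeR or DESeq2, with 3 at an unadjusted p under 0.05 in edgeR. Their sum was 4903 ± 562 CPM in unstimulated d to f and 3453 ± 287 with IL-4, and their part in the members' fall was not tested. *Ctsb*, *Gpnmb*, *Lipa* and *Sqstm1* were lower in every fit that left out 1 library. *Cd68*, *Ctsc*, *Ctsd* and *Ctsl* were not: without IL-4 1 the count of lower members was 4, and without IL-4 3 it was 5. Leaving out the divergent unstimulated e gave 9 lower members, the added one being *Ctss* at -0.42 (adjusted p = 0.00636).

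Across the 4 stimuli, *Laptm5*, *Mcoln1* and *Tfeb* were not called in the main edgeR fits in any comparison with unstimulated cells, though *Laptm5* was called in some alternatives. *Ctsa*, *Grn*, *Gusb* and *Hexa* were lower under *E. coli*, IFN-γ and their combination, and *Gm2a* and *Sqstm1* were higher in all 3. The *E. coli* calls of *Gm2a* and *Sqstm1* were lost in some fits that left out a library. All 3 comparisons share unstimulated a to c, and the share of all genes called in all 3 is not given, so this only lists members. For *Ctsb* and *Ctss* the stimuli went opposite ways, since both genes were lower with *E. coli* and higher with IFN-γ. Levels of some members differed between unstimulated a to c and d to f, as for *Lamp1* (1046 and 99.7 CPM) and *Gm2a* (84.2 and 365.8). For *Gpnmb* they were alike (77.0 and 76.9). A fit that pools these controls mixes such differences between the sets with the effect of a stimulus. Pooling all 6 unstimulated libraries into a single control group, across the 2 sets, kept 29 of the 64 calls made against unstimulated cells and turned the sign of 4. It added 8 calls, those of *Laptm5* and *Tfe3* with *E. coli* and of *Galns* and *Laptm5* with both among them. The rest were those of *Ctsa*, *Lamp1*, *Psap* and *Tfe3* with IL-4. It ended the calls of *Gm2a*, *Psap* and *Sqstm1* with *E. coli*. With IFN-γ it ended those of *Ctsa*, *Ctsb*, *Ctsd*, *Ctsh*, *Ctss*, *Ctsz*, *Gla*, *Gm2a*, *Lamp2*, *Laptm4a*, *Lipa*, *Mitf*, *Smpd1* and *Sqstm1*. With both it ended those of *Asah1*, *Ctsa*, *Ctsb*, *Ctsh*, *Gla*, *Gm2a*, *Gpnmb*, *Lamp1*, *Lamp2*, *Laptm4a*, *Mitf* and *Smpd1*, and with IL-4 those of *Cd68*, *Ctsb*, *Ctsc*, *Ctsd*, *Ctsl* and *Sqstm1*. Under it *Gm2a* went with *E. coli* to -1.19 (adjusted p = 0.158) and *Sqstm1* to -0.32 (adjusted p = 0.448), and with IFN-γ *Ctsd* went to -0.19 (adjusted p = 0.676) and *Ctss* to -0.80 (adjusted p = 0.234).

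**Figure D1:**
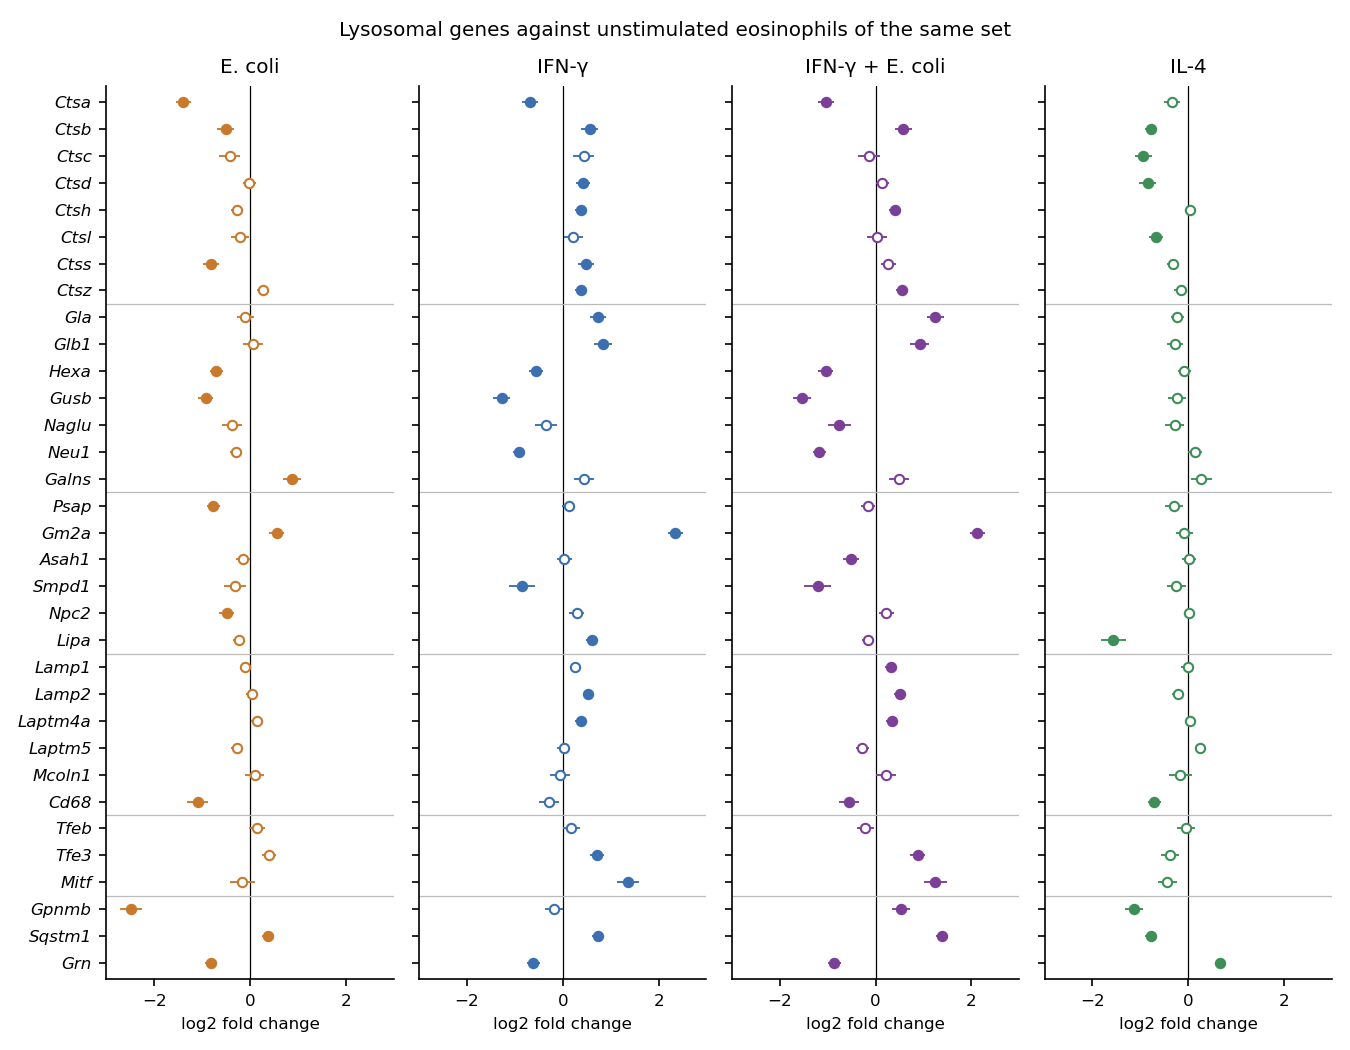
Log2 fold change (x axis) of each of the 33 lysosomal genes (y axis, grouped by role) with each stimulus against the unstimulated libraries of its set, with bars of ±1 SE and n = 3 libraries a group; filled points were called at an adjusted p under 0.05 and open points were not. *Gpnmb* lies at -2.49 with *E. coli* and *Gm2a* at 2.35 with IFN-γ.

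Among the MiT/TFE factors, *Mitf* and *Tfe3* rose with IFN-γ and *Tfeb* did not pass the test. *Mitf* (ENSMUSG00000035158, chromosome 6, 97807052 to 98021349 in GENCODE M21 on GRCm38) encodes the family member best known from melanocytes, osteoclasts and mast cells. Its level was 13.0, 6.97 and 13.2 CPM in unstimulated a, b and c, 9.38, 11.4 and 9.87 in *E. coli* 1 to 3, 27.4, 27.7 and 34.7 in IFN-γ 1 to 3 and 24.1, 24.7 and 33.6 in the libraries with both. All 6 libraries with IFN-γ, alone or combined, thus lay above all 6 without it. The log2 fold change was 1.37 ± 0.23 (SE, adjusted p = 0.000159) with IFN-γ, 1.25 ± 0.24 (SE, adjusted p = 0.000245) with both stimuli against unstimulated cells and 1.41 ± 0.24 (SE, adjusted p = 0.000131) with both against *E. coli* alone. With *E. coli* alone *Mitf* was not called, at -0.16 (adjusted p = 0.684). Pooled across the 2 sets of controls, neither call against unstimulated cells remained, with 0.24 (adjusted p = 0.710) for IFN-γ and 0.14 (adjusted p = 0.812) for both. The summed mast cell markers were also higher in the libraries with IFN-γ and with both than in unstimulated a to c, and the part of mast cells in the *Mitf* result was not tested.

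*Tfe3*, a ubiquitous member of the family, averaged 44.7 ± 7.09 CPM (SD, n = 3) in unstimulated a to c, 74.0 ± 7.64 with IFN-γ and 83.0 ± 9.01 with both, which gave log2 fold changes of 0.71 ± 0.15 (SE, adjusted p = 0.00115) and 0.88 ± 0.15 (SE, adjusted p = 8.38e-05). With *E. coli* it stood at 0.39 (adjusted p = 0.0538), just outside the threshold, and was called at 0.48 without unstimulated c (adjusted p = 0.0412) and 0.47 without *E. coli* 2 (adjusted p = 0.0488). DESeq2's size factors in edgeR also gave a call, at 0.40 (adjusted p = 0.0463). So did the fit of the 6 libraries compared, at 0.41 (adjusted p = 0.0459). Pooled controls, which mix the sets, gave 0.62 (adjusted p = 0.0120). *Tfe3* averaged 25.4 ± 4.23 CPM in unstimulated d to f, against 44.7 in a to c. *Tfeb*, the member best known for control of lysosomal genes, ranged from -0.22 to 0.18 in these comparisons, with adjusted p of 0.341 to 0.566. IL-4 left all 3 factors uncalled in edgeR against unstimulated d to f, at -0.44 for *Mitf*, -0.38 for *Tfe3* and -0.04 for *Tfeb*. In edgeR 1 of them had an unadjusted p under 0.05, and DESeq2 called 0. With pooled controls, which mix the sets, *Tfe3* was called with IL-4, at -0.57 (adjusted p = 0.0350).

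Among the cathepsins, *Ctsa* fell with every stimulus of the first set, whereas *Ctsb*, *Ctsd*, *Ctsh*, *Ctss* and *Ctsz* rose with IFN-γ. *Ctsa* (ENSMUSG00000017760, chromosome 2, 164832873 to 164841032) encodes a serine carboxypeptidase that also protects β-galactosidase and neuraminidase from degradation. Unstimulated a, b and c had 143, 114 and 126 CPM, *E. coli* 1 to 3 had 40.0, 43.1 and 65.7, IFN-γ 1 to 3 had 92.9, 70.2 and 76.5 and the libraries with both had 59.2, 58.1 and 71.9. Every stimulated library was below every unstimulated one, and the lowest were *E. coli* 1 and 2. *Ctsa* was 2.62-fold lower with *E. coli* (log2 -1.39 ± 0.17 SE, adjusted p = 3.94e-06), 1.61-fold lower with IFN-γ (-0.69 ± 0.16 SE, adjusted p = 0.00333) and 2.04-fold lower with both (-1.03 ± 0.17 SE, adjusted p = 5.98e-05). With pooled controls the calls with IFN-γ, at -0.27 (adjusted p = 0.455), and with both, at -0.58 (adjusted p = 0.0800), ended. Exons of *Ctsa* overlap *Neurl2* and *Pltp* on the opposite strand, and whether counting used the strand is not stated.

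The effect of *E. coli* on *Ctsa* was smaller when IFN-γ was present. By the interaction, which is the log2 effect of *E. coli* with IFN-γ minus that without, it departed from the sum of the separate effects by 1.05 ± 0.24 (SE, adjusted p = 0.0169). In plain terms, *E. coli* and IFN-γ each lowered *Ctsa*, and the pair lowered it less than the sum of their log2 effects would give. This call was lost without unstimulated a, *E. coli* 1 or 2 or IFN-γ 2 (log2 0.91 to 0.95, adjusted p 0.0584 to 0.0643), while its value stayed above 0.

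*Ctsb* (ENSMUSG00000021939, chromosome 14, 63122462 to 63145923) and *Ctss* (ENSMUSG00000038642, chromosome 3, 95526786 to 95556403) encode cysteine endopeptidases, the latter known for its role in trimming the invariant chain of MHC class II. For *Ctsb* the unstimulated libraries a to c held 604, 523 and 685 CPM, *E. coli* 1 to 3 363, 337 and 579, IFN-γ 1 to 3 865, 806 and 1006 and those with both 754, 849.8 and 1109.9. *E. coli* 1 and 2 were below all other libraries of the set, whereas *E. coli* 3 lay within the unstimulated range. *Ctss* was likewise lowest with *E. coli*, at 617, 638 and 637 CPM in unstimulated a to c, 310.0, 296 and 469 with *E. coli*, 882, 784 and 971 with IFN-γ and 617, 714 and 950.3 with both. Its *E. coli* libraries were all below the others, with *E. coli* 3 again highest of the 3.

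Both genes were higher with the combination than with *E. coli* alone, *Ctsb* by 2.13-fold (log2 1.09 ± 0.18 SE, adjusted p = 0.000130) and *Ctss* by 2.13-fold (1.09 ± 0.17 SE, adjusted p = 5.41e-05), with no overlap between the groups. With IFN-γ alone against unstimulated cells, *Ctsb* was at 0.56 (adjusted p = 0.0236) and *Ctss* at 0.48 (adjusted p = 0.0337). These last calls were lost, for *Ctsb*, without unstimulated a or b or IFN-γ 3 (log2 0.49 to 0.56, adjusted p 0.0681 to 0.0891), and for *Ctss* without unstimulated a, b or c or IFN-γ 1 or 3 (log2 0.42 to 0.51, adjusted p 0.0510 to 0.112) and with at least 10 counts required in every library, at 0.43 (adjusted p = 0.0539). *Ctss* with *E. coli* was at -0.82 ± 0.17 (SE, adjusted p = 0.000984). The *E. coli* effect on either gene was not shown to differ with IFN-γ, the interaction being 0.53 (adjusted p = 0.304) and 0.61 (adjusted p = 0.168). Without *E. coli* 3, however, the interaction was 0.80 (adjusted p = 0.0305) for *Ctsb* and 0.84 (adjusted p = 0.0181) for *Ctss*. *Ctsb* shares exon positions with *Fdft1* on the opposite strand.

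The other cathepsins moved less in the first set. *Ctsh*, an aminopeptidase and endopeptidase, averaged 933 ± 166 CPM in unstimulated a to c and 1241 ± 89.9 with both stimuli (0.41, adjusted p = 0.0110), and it was 1.60-fold higher than with *E. coli* alone (0.68, adjusted p = 0.000402). Its call against unstimulated cells was lost without unstimulated a or c (log2 0.33 to 0.35, adjusted p 0.0545 to 0.0619). *Ctsz*, a carboxypeptidase, rose with both from 396 ± 18.1 to 579 ± 37.2 CPM (0.55 ± 0.12 SE, adjusted p = 0.00129), a call kept whichever library was left out. *Ctsd*, the main aspartic protease of lysosomes, was at 0.42 (adjusted p = 0.0284) with IFN-γ, a call lost without unstimulated a or c or IFN-γ 1 or 3 (log2 0.27 to 0.44, adjusted p 0.0533 to 0.158). *Ctsc*, which activates granule serine proteases, and *Ctsl*, a cysteine endopeptidase, were not called in the first set, where their log2 fold changes against unstimulated cells ran from -0.43 to 0.44 and from -0.21 to 0.22. With *E. coli*, however, *Ctsc* was -0.70 without *E. coli* 3 (adjusted p = 0.0196) and *Ctsl* -0.51 without *E. coli* 3 (adjusted p = 0.0298). Without the filter on low counts *Ctsc* was also called, at -0.38 (adjusted p = 0.0389) with *E. coli* and 0.47 (adjusted p = 0.00511) with IFN-γ.

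IL-4 lowered 4 of the 8 cathepsins, against 4.35% of all genes, and 1 of these calls held with each library left out. *Ctsb* had 775, 987 and 1002 CPM in unstimulated d, e and f and 513, 520.4 and 582 in IL-4 1 to 3, and its call was the one that held (-0.77 ± 0.13 SE, adjusted p = 0.00411). The remaining calls were those of *Ctsc* at -0.94 (adjusted p = 0.00878), *Ctsd* at -0.85 (adjusted p = 0.0118) and *Ctsl* at -0.67 (adjusted p = 0.0159). They were lost, for *Ctsc*, without IL-4 1 or 3 (log2 -0.92 to -0.84, adjusted p 0.0518 to 0.0626), for *Ctsd* without IL-4 1 or 3 (log2 -0.83 to -0.79, adjusted p 0.0628 to 0.0740), and for *Ctsl* without unstimulated f or IL-4 1, 2 or 3 (log2 -0.72 to -0.55, adjusted p 0.0570 to 0.0944). *Ctsd* had its highest value in unstimulated e (1445, 2255 and 1469 CPM in d, e and f), and without that library it was at -0.61 (adjusted p = 0.000473). *Ctsd* and *Ctsl* share exon positions with other annotated genes, *Gm49369* on the same strand as *Ctsd*, and *Gm47123* on the opposite and *Gm49230* on the same strand as *Ctsl*.

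Glycosidases moved in opposite directions with IFN-γ, with *Gusb*, *Hexa* and *Neu1* lower and *Gla* and *Glb1* higher. *Gusb* (ENSMUSG00000025534, chromosome 5, 129989011 to 130003049) encodes β-glucuronidase. It had 58.5, 53.9 and 42.9 CPM in unstimulated a to c, 27.7, 25.1 and 29.6 with *E. coli*, 23.5, 18.5 and 22.2 with IFN-γ and 18.3, 18.6 and 16.5 with both. All 9 stimulated libraries were below the 3 unstimulated ones. The fall was 1.89-fold with *E. coli* (log2 -0.92 ± 0.16 SE, adjusted p = 0.000191), 2.42-fold with IFN-γ (-1.28 ± 0.17 SE, adjusted p = 1.24e-05) and 2.90-fold with both (-1.53 ± 0.18 SE, adjusted p = 1.09e-06). The combination was also lower than *E. coli* alone, at -0.62 (adjusted p = 0.0182), but this call was lost without *E. coli* 3 or IFN-γ with *E. coli* 3 (log2 -0.57, adjusted p 0.0509 to 0.0552), and DESeq2 gave -0.60 (adjusted p = 0.0611).

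*Hexa* (ENSMUSG00000025232, chromosome 9, 59539540 to 59565109) encodes the α subunit of β-hexosaminidase, which cleaves the ganglioside GM2. Its values were 131, 133 and 109 CPM in unstimulated a to c, 70.6, 72.6 and 86.4 with *E. coli*, 95.2, 87.1 and 68.0 with IFN-γ and 65.0, 65.7 and 49.5 with both, again without overlap between any stimulated group and the unstimulated one. Log2 fold changes were -0.70 ± 0.14 (SE, adjusted p = 0.000900) with *E. coli*, -0.57 ± 0.14 (SE, adjusted p = 0.00562) with IFN-γ and -1.04 ± 0.15 (SE, adjusted p = 1.49e-05) with both. The step from IFN-γ to both was -0.48 (adjusted p = 0.0553). It was called without the filter on low counts, at -0.51 (adjusted p = 0.0313), and with the replicate number as a block, at -0.50 (adjusted p = 0.0204). Calls also came with at least 10 counts in every library, at -0.49 (adjusted p = 0.0466), and without IFN-γ 3, at -0.60 (adjusted p = 0.0243). Exons of *Tmem202* overlap *Hexa* on the opposite strand. *Neu1* (ENSMUSG00000007038, chromosome 17, 34931253 to 34935953) encodes the lysosomal sialidase that *Ctsa* protects. The gene had 109.9, 129.9 and 94.2 CPM in unstimulated a to c and 94.6, 86.9 and 89.9 with *E. coli*, but 61.0, 56.9 and 58.9 with IFN-γ and 45.3, 50.4 and 51.4 with both. Its fall went with IFN-γ, at -0.91 ± 0.13 (SE, adjusted p = 2.58e-05) alone and -1.17 ± 0.13 (SE, adjusted p = 8.75e-07) with *E. coli*, whereas *E. coli* by itself gave -0.29 (adjusted p = 0.0774) with overlapping groups, and -0.40 without unstimulated c (adjusted p = 0.0263).

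*Gla* (ENSMUSG00000031266, chromosome X, 134588149 to 134601125) encodes α-galactosidase A, which removes galactose from globotriaosylceramide. Levels were 87.9, 74.2 and 121 CPM in unstimulated a to c, 67.7, 83.3 and 118 with *E. coli*, 167, 145 and 163 with IFN-γ and 218, 219 and 241 with both. The 3 libraries with both stimuli were above every other library of the set. *Gla* was 2.38-fold higher with both than in unstimulated cells (log2 1.25 ± 0.17 SE, adjusted p = 9.39e-06) and 2.54-fold higher than with *E. coli* alone (1.35 ± 0.17 SE, adjusted p = 6.83e-06), and with IFN-γ alone it was at 0.74 ± 0.18 (SE, adjusted p = 0.00343). The step from IFN-γ to the combination was 0.51 (adjusted p = 0.0560), just outside the threshold though the groups did not overlap. It was called without the filter on low counts, at 0.48 (adjusted p = 0.00961), in the fit of these 6 libraries alone, at 0.48 (adjusted p = 0.0160), and with the replicate number as a block, at 0.49 (adjusted p = 0.00579). With pooled controls the calls against unstimulated cells ended, at 0.17 (adjusted p = 0.685) with IFN-γ and 0.71 (adjusted p = 0.0524) with both.

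Of the other glycan-degrading enzymes, *Glb1*, which encodes β-galactosidase, rose from 31.3 ± 5.31 to 55.4 ± 9.86 CPM with IFN-γ (0.84 ± 0.20 SE, adjusted p = 0.00294) and to 58.6 ± 15.4 with both (0.92 ± 0.20 SE, adjusted p = 0.000757). Its gene shares exon positions with *Tmppe* on the same strand. *Galns*, a sulfatase that acts on keratan sulfate, was the member *E. coli* raised in every fit, from 14.8 ± 1.03 to 26.9 ± 2.14 CPM (0.87 ± 0.19 SE, adjusted p = 0.00192). *Naglu*, an enzyme of heparan sulfate degradation, was lower with both at -0.75 (adjusted p = 0.0132), with overlapping groups and a call lost without unstimulated a or IFN-γ with *E. coli* 1 or 2 (log2 -0.66 to -0.56, adjusted p 0.0601 to 0.0937). None of the 7 was called with IL-4 by edgeR or by DESeq2, and 0 had an unadjusted p under 0.05 in edgeR; their log2 fold changes were -0.28 to 0.27.

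*Gm2a* was the member that IFN-γ raised most. The gene (ENSMUSG00000000594, chromosome 11, 55098115 to 55113029) encodes the GM2 activator, a cofactor that presents the ganglioside to the hexosaminidase of which *Hexa* is a subunit. Counts scaled to 69.7, 86.8 and 96.2 CPM in unstimulated a, b and c and 115, 118 and 140.2 in *E. coli* 1 to 3. With IFN-γ they reached 367, 417 and 500.3 CPM, and with both stimuli 372, 302 and 425. The 6 libraries with IFN-γ did not overlap with the 6 without it, and among the latter the *E. coli* libraries were above the unstimulated ones. *Gm2a* rose 5.09-fold with IFN-γ (log2 2.35 ± 0.16 SE, adjusted p = 1.72e-09), 4.35-fold with both (2.12 ± 0.16 SE, adjusted p = 2.68e-09) and 1.47-fold with *E. coli* (0.56 ± 0.16 SE, adjusted p = 0.0117), the last being the call lost without unstimulated a.

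With IFN-γ present, *E. coli* did not raise *Gm2a* further, and the combination stood at -0.23 (adjusted p = 0.368) against IFN-γ alone. The interaction was -0.79 ± 0.22 (SE, adjusted p = 0.0418). Its call was lost without unstimulated a or b, *E. coli* 1, 2 or 3, IFN-γ 2 or 3 or IFN-γ with *E. coli* 1 or 2 (log2 -0.85 to -0.66, adjusted p 0.0551 to 0.145), and in a model of all 18 libraries it was -0.79 (adjusted p = 0.108). IL-4 gave -0.08 (adjusted p = 0.815), with 272, 476 and 349.6 CPM in unstimulated d to f and 352, 328 and 358 in the IL-4 libraries. Pooling the 6 unstimulated libraries ended the calls with IFN-γ, at 0.62 (adjusted p = 0.433), and with both, at 0.41 (adjusted p = 0.565).

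*Smpd1* (ENSMUSG00000037049, chromosome 7, 105554360 to 105558389), the gene of acid sphingomyelinase, went the other way. Its libraries read 45.1, 41.8 and 33.5 CPM in unstimulated a to c, 32.2, 30.8 and 34.1 with *E. coli*, 34.7, 16.9 and 14.4 with IFN-γ and 26.3, 13.7 and 13.2 with both. In each group with IFN-γ, library 1 was well above 2 and 3, and IFN-γ 1 lay inside the unstimulated range. *Smpd1* was 2.31-fold lower with both (log2 -1.21 ± 0.28 SE, adjusted p = 0.00159), and it was at -0.85 (adjusted p = 0.0192) with IFN-γ alone. That call was lost without unstimulated a or IFN-γ 2 or 3 (log2 -0.75 to -0.63, adjusted p 0.0917 to 0.107). Against *E. coli* alone the combination was at -0.89 (adjusted p = 0.0218), lost without IFN-γ with *E. coli* 2 or 3 (log2 -0.74 to -0.73, adjusted p 0.0692 to 0.115), and pooled controls ended the calls with IFN-γ, at -0.44 (adjusted p = 0.347), and with both, at -0.73 (adjusted p = 0.0955).

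*Lipa* (ENSMUSG00000024781, chromosome 19, 34492318 to 34527474) encodes lysosomal acid lipase, which frees cholesterol and fatty acids from the esters of lipoproteins taken up. IL-4 lowered it. Unstimulated d, e and f had 241, 524 and 257 CPM and IL-4 1 to 3 had 110.1, 116 and 119.8, so that unstimulated e was far above d and f, and all IL-4 libraries were below all 3. The fall was 2.96-fold (log2 -1.57 ± 0.26 SE, adjusted p = 0.00408), and without unstimulated e it was -1.12 (adjusted p = 5.10e-06) on the log2 scale. IFN-γ alone raised *Lipa*, from 222, 259.8 and 285 CPM in unstimulated a to c to 409, 365 and 396, at 0.61 ± 0.12 (SE, adjusted p = 0.000585). That rise was not seen with both stimuli, where the libraries had 213, 221 and 254 CPM, at -0.16 (adjusted p = 0.302) against unstimulated cells and -0.77 ± 0.12 (SE, adjusted p = 0.000255) against IFN-γ alone. The interaction for *Lipa* was -0.53 (adjusted p = 0.0829), which did not pass the threshold, and -0.64 without IFN-γ with *E. coli* 3 (adjusted p = 0.0340).

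The rest of the lipid genes changed by less than 2-fold. *Psap*, which encodes the precursor of the saposins, fell with *E. coli* from 526 ± 20.7 to 310.1 ± 43.2 CPM (-0.76 ± 0.14 SE, adjusted p = 0.000451), and with both it was at 472 ± 114, higher than with *E. coli* alone by 0.61 ± 0.14 (SE, adjusted p = 0.00297). *Npc2*, the soluble carrier that hands cholesterol to NPC1, had 478, 471 and 729 CPM in *E. coli* 1 to 3 and was higher by 0.70 ± 0.16 (SE, adjusted p = 0.00189) with the combination than with *E. coli* alone. *Asah1*, the acid ceramidase, was lower with both at -0.51 (adjusted p = 0.0132), a call lost without unstimulated c or IFN-γ with *E. coli* 3 (log2 -0.44 to -0.39, adjusted p 0.0542 to 0.0748). Its call against IFN-γ alone, -0.54 (adjusted p = 0.0369), was lost without IFN-γ 1 or 3 or IFN-γ with *E. coli* 1, 2 or 3 (log2 -0.60 to -0.42, adjusted p 0.0549 to 0.156), DESeq2 gave -0.54 (adjusted p = 0.0792) and the fit of these 6 libraries alone -0.57 (adjusted p = 0.0569).

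Of the 6 lysosomal membrane proteins, *Cd68* was the one with a called change of 2-fold or more in the deposited counts. *Cd68* (ENSMUSG00000018774, chromosome 11, 69664213 to 69666153) encodes macrosialin, a heavily glycosylated protein best known as a marker of macrophages. It was at 139, 124 and 149.9 CPM in unstimulated a to c, 49.0, 49.8 and 98.7 with *E. coli*, 123, 109.7 and 108 with IFN-γ and 70.8, 86.6 and 125 with both. *E. coli* 1 and 2 had about equal values and *E. coli* 3 was higher, yet all 3 were below the unstimulated libraries. The fall was 2.13-fold with *E. coli* (log2 -1.09 ± 0.22 SE, adjusted p = 0.000743). With both stimuli it was -0.55 (adjusted p = 0.0413), where the groups overlapped; this call was lost without unstimulated a or c or IFN-γ with *E. coli* 1 or 2 (log2 -0.55 to -0.37, adjusted p 0.0920 to 0.199), DESeq2 gave -0.52 (adjusted p = 0.0653), DESeq2's size factors in edgeR -0.52 (adjusted p = 0.0524) and a model of all 18 libraries -0.48 (adjusted p = 0.0672). IL-4 lowered *Cd68* from 156, 152 and 190.3 CPM in unstimulated d to f to 99.5, 95.7 and 109.7 (-0.71 ± 0.13 SE, adjusted p = 0.00779), a call lost without IL-4 1 or 2 (log2 -0.68 to -0.67, adjusted p 0.0584 to 0.0605). Beside it, 4 of 12 tested macrophage markers were lower with *E. coli* and 6 of 13 with IL-4. The part of those cells in the change was not tested.

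*Lamp2*, a structural protein of the lysosomal membrane and receptor of chaperone-mediated autophagy, rose from 254 ± 25.5 to 368 ± 53.8 CPM with IFN-γ (0.54 ± 0.12 SE, adjusted p = 0.00259) and to 359.8 ± 33.2 with both (0.50 ± 0.12 SE, adjusted p = 0.00241). *Lamp1*, its close relative, was higher with both at 0.32 (adjusted p = 0.0297), a call lost without unstimulated a or c or IFN-γ with *E. coli* 1 or 3 (log2 0.26 to 0.33, adjusted p 0.0584 to 0.114). *Laptm4a*, a transmembrane protein of late endosomes, had log2 fold changes of 0.38 (adjusted p = 0.0221) with IFN-γ and 0.33 (adjusted p = 0.0283) with both. These calls were lost, with IFN-γ, without unstimulated a or c or IFN-γ 1 or 3 (log2 0.30 to 0.37, adjusted p 0.0594 to 0.112), and with both without unstimulated a or c or IFN-γ with *E. coli* 3 (log2 0.25 to 0.32, adjusted p 0.0771 to 0.135). With at least 10 counts required in every library, *Lamp1* with both was at 0.26 (adjusted p = 0.0634) and *Laptm4a* at 0.27 (adjusted p = 0.0558), and in the fit of the 6 libraries compared they were at 0.31 (adjusted p = 0.0701) and 0.32 (adjusted p = 0.0732). *Mcoln1*, a cation channel that releases calcium from lysosomes, ranged from -0.17 to 0.22 over the 4 stimuli. Its transcripts share a near-identical stretch with those of another gene, *A230057D06Rik*. *Laptm5*, a protein of haematopoietic lysosomes, ranged from -0.27 to 0.25 in the counts as deposited. With both stimuli it was -0.37 without unstimulated a (adjusted p = 0.0472), and corrected for repeated identifiers, as described below, -0.84 (adjusted p = 1.99e-05). With at least 10 counts required in every library, *Laptm5* with both was also called, at -0.33 (adjusted p = 0.0463). Pooled controls, which mix the sets, gave calls at -0.57 with *E. coli* (adjusted p = 0.0460) and -0.52 with both (adjusted p = 0.0412).

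*Gpnmb* gave the largest change of any member. The gene (ENSMUSG00000029816, chromosome 6, 49036546 to 49070929) encodes a transmembrane glycoprotein of melanosomes and lysosomes that MITF is known to regulate and that macrophages also express. Unstimulated a, b and c had 76.0, 64.6 and 90.4 CPM. With *E. coli* the libraries had 11.8, 11.4 and 19.3 CPM, with IFN-γ 71.1, 69.2 and 65.4 and with both 81.1, 112 and 142. All 3 *E. coli* libraries were far below every other library of the set, the IFN-γ libraries lay within the unstimulated range, and the highest values were those of libraries 2 and 3 with both stimuli. *Gpnmb* fell 5.60-fold with *E. coli* (log2 -2.49 ± 0.22 SE, adjusted p = 1.07e-07). IFN-γ alone gave -0.18 (adjusted p = 0.510). When IFN-γ was added to *E. coli*, *Gpnmb* was 8.09-fold higher than with *E. coli* alone (log2 3.02 ± 0.22 SE, adjusted p = 4.51e-09).

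*E. coli* thus lowered *Gpnmb* in the absence of IFN-γ and did not lower it in its presence. The interaction was 3.19 ± 0.29 (SE, adjusted p = 3.68e-06), and it passed the threshold in all alternatives run, with values between 2.96 and 3.43 when single libraries were left out. It was the member with the largest interaction. This interaction was named in the rule that chose the members, so neither its rank nor a share that counts it is support. Of 33 members, 2 were called above 0 (6.06%), against 2.58% of all genes, and 1 below (3.03%), against 2.04%. These shares were not far from those of all genes at so few calls. Without *E. coli* 3 the interactions above 0 numbered 7, with *Cd68*, *Ctsb*, *Ctss*, *Gla* and *Grn* added to *Gpnmb* and *Ctsa*. The share of all genes called in that fit is not given, so this rise is not set against all genes. The count above 0 was 1 without unstimulated a, *E. coli* 1, *E. coli* 2 or IFN-γ 2, and 2 were below 0 without IFN-γ with *E. coli* 3. The median interaction of members was 0.03, against 0.00 for all genes.

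Against unstimulated cells, *Gpnmb* with both stimuli was 1.44-fold higher (log2 0.53 ± 0.18 SE, adjusted p = 0.0208), but library 1 with both overlapped the unstimulated range. This call was lost without unstimulated a or b or IFN-γ with *E. coli* 3 (log2 0.34 to 0.51, adjusted p 0.0644 to 0.118). Against IFN-γ alone the combination was 0.71 ± 0.19 (SE, adjusted p = 0.0174) higher without overlap, a call lost without IFN-γ 1, 2 or 3 or IFN-γ with *E. coli* 2 or 3 (log2 0.49 to 0.73, adjusted p 0.0523 to 0.0838). In the IL-4 set, unstimulated d, e and f had 80.8, 62.0 and 88.0 CPM and IL-4 1 to 3 had 28.0, 36.6 and 41.0. The groups did not overlap, and IL-4 lowered *Gpnmb* 2.19-fold (log2 -1.13 ± 0.19 SE, adjusted p = 0.00408).

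Several markers of other cells also had called interactions, most of them above 0. Of 12 macrophage markers tested, 2 had an interaction above 0, *Marco* at 2.01 ± 0.23 (SE, adjusted p = 5.61e-05) and *Timd4* at 1.62 ± 0.34 (SE, adjusted p = 0.00953). *Marco*, a scavenger receptor, had 165, 162 and 160.2 CPM in unstimulated a to c, 46.1, 37.4 and 66.7 with *E. coli*, 339, 318 and 346 with IFN-γ and 321, 435 and 469 with both. *Timd4*, a marker of resident peritoneal macrophages, averaged 28.1 ± 4.55, 9.43 ± 2.95, 27.9 ± 4.30 and 27.6 ± 8.11 CPM (SD, n = 3) in these groups. With IFN-γ, 5 of the 12 were higher than in unstimulated cells, *Marco* among them, and 1 was lower, while *Timd4* was not called (-0.04, adjusted p = 0.922). With both, 3 were higher and 1 was lower. Their part in the members' rise with IFN-γ was not tested. With *E. coli*, 4 of the 12 were lower (*Marco*, *Timd4*, *Vsig4* and *Lyz2*), and against *E. coli* alone the combination raised 6 and lowered 1. All 5 tested B cell markers had interactions above 0, with *Cd79a* at 2.32 ± 0.35 (SE, adjusted p = 0.000644), while DESeq2 called 4 of them. Of 3 neutrophil markers tested, 1 had an interaction below 0, *S100a8* at -2.55 ± 0.57 (SE, adjusted p = 0.0126), a call lost without unstimulated a (log2 -2.99 to -1.97 over all fits that left out a library). IL-4 lowered 6 of 13 macrophage markers, with *Marco* at -2.77 ± 0.14 (SE, adjusted p = 1.59e-05), while *Timd4* with IL-4 was at 0.53 (adjusted p = 0.0856). The part of macrophages or B cells in the *Gpnmb* result was not tested.

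**Figure D2:**
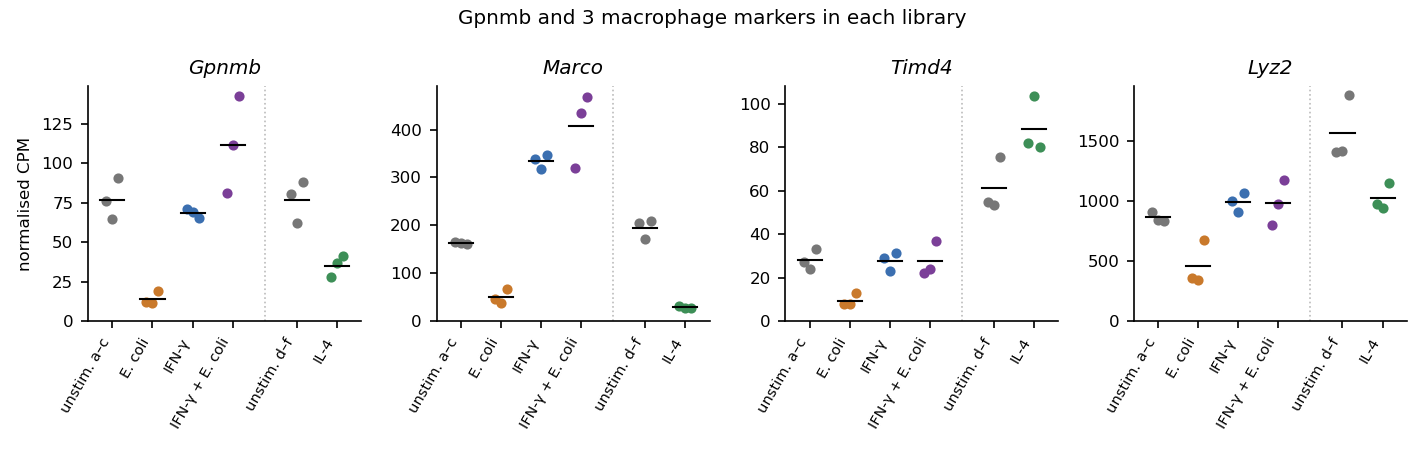
Normalised CPM (y axis) of *Gpnmb* and of the macrophage markers *Marco*, *Timd4* and *Lyz2* in each of the 18 libraries, by group (x axis); points are libraries and lines the mean of 3, and the dotted line parts the 2 sets. The 3 markers shown are among the 4 of 12 tested that were called lower with *E. coli*, where the other 8 were not called. For the interaction, 10 of the 12 were not called. *Gpnmb* was 77.0 ± 12.9 CPM in unstimulated a to c, 14.2 ± 4.43 with *E. coli* and 112 ± 30.7 with both (SD, n = 3).

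*Sqstm1* (ENSMUSG00000015837, chromosome 11, 50199366 to 50210827) encodes an autophagy receptor that links ubiquitinated cargo to the autophagosome. Its levels were 477, 586 and 582 CPM in unstimulated a to c, 698, 646 and 782 with *E. coli*, 968, 861 and 912 with IFN-γ and 1434, 1301 and 1541 with both. The 4 groups did not overlap, in the order unstimulated, *E. coli*, IFN-γ and both. *Sqstm1* was 2.60-fold higher with both than in unstimulated cells (log2 1.38 ± 0.12 SE, adjusted p = 2.44e-08), 2.01-fold higher than with *E. coli* (1.01 ± 0.12 SE, adjusted p = 2.16e-06) and 1.56-fold higher than with IFN-γ (0.64 ± 0.12 SE, adjusted p = 0.00120). IFN-γ alone gave 0.74 ± 0.12 (SE, adjusted p = 0.000100). No departure from the sum of the separate effects was detected, the interaction being 0.27 (adjusted p = 0.455). IL-4 lowered it from 839, 1006 and 948 CPM in unstimulated d to f to 532, 562 and 530.1 (-0.78 ± 0.11 SE, adjusted p = 0.00193). *Mrnip* overlaps *Sqstm1* on the opposite strand.

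*Grn* encodes progranulin, a secreted protein that lysosomes process into granulins. It averaged 1298 ± 182 CPM in unstimulated a to c, 736 ± 115 after *E. coli*, 849 ± 36.5 after IFN-γ and 714 ± 67.2 after the combination. All 3 groups were below the unstimulated one without overlap, at -0.82 ± 0.13 (SE, adjusted p = 9.13e-05), -0.61 ± 0.13 (SE, adjusted p = 0.00139) and -0.86 ± 0.13 (SE, adjusted p = 2.58e-05) on the log2 scale. With IL-4, in contrast, *Grn* rose from 2756 ± 263 to 4344 ± 93.0 CPM (0.66 ± 0.11 SE, adjusted p = 0.00371), and 0.59 (adjusted p = 0.000119) without unstimulated e. Responses to IL-4 and to the other stimuli were measured in separate sets, and their difference was not tested here. *Fam171a2* overlaps *Grn* on the opposite strand.

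**Figure D3:**
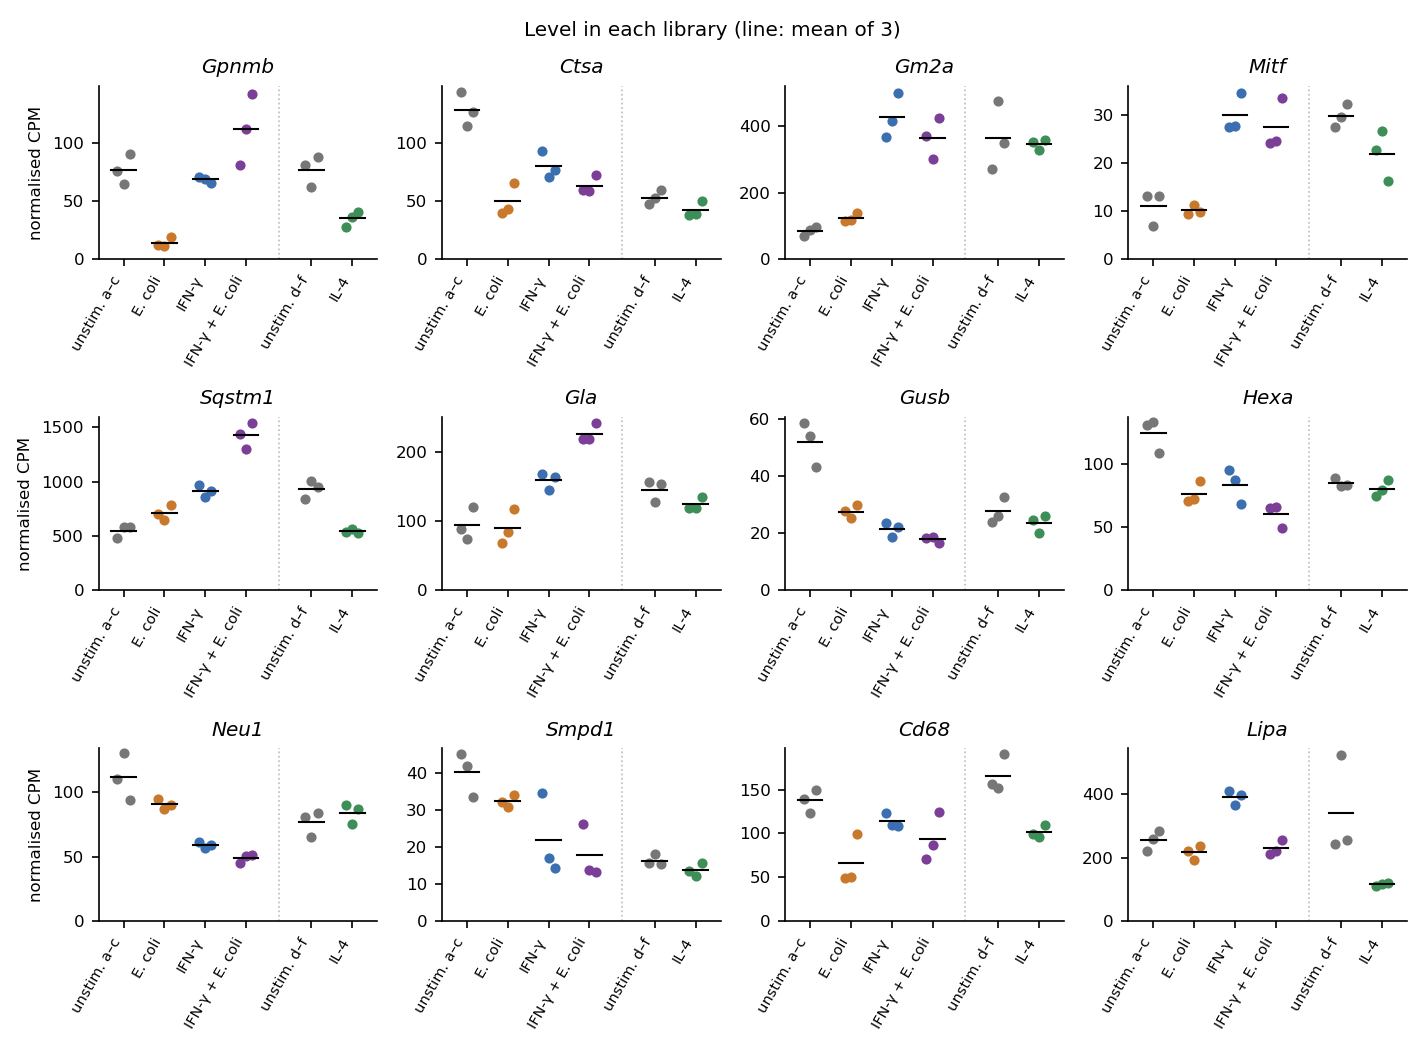
Normalised CPM (y axis) of 12 lysosomal genes in each of the 18 libraries, by group (x axis); points are libraries, lines the mean of 3, and the dotted line parts the 2 sets, between which levels were not compared. With *Gm2a* the 6 libraries with IFN-γ lie at 302 CPM or above and the other 6 of that set at 140.2 or below.

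The counts of the first set have a ceiling that touches some members. In its 12 libraries the largest count of any gene was at least 4089 and always below 4 to the power of 6, the number of different identifiers that 6 bases can spell, whereas in the IL-4 set the largest counts were 87377 to 191131. Whether identifiers were collapsed is not stated for either set. If they were, abundant transcripts share identifiers and their changes are compressed. Of the 33 members, 12 exceeded 25% of that number in some library, against 694 of 9883 genes tested (7.02%). A correction that turns distinct identifiers back into the number of molecules drawn, chosen after seeing the data, kept all 79 member calls of the set and added 6.

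*Laptm5* accounted for 4 of the added calls. From -0.27 (adjusted p = 0.102) with both stimuli as deposited it went to -0.84, and with *E. coli* to -0.39 (adjusted p = 0.0215). The combination was also lower than *E. coli* alone, at -0.45 (adjusted p = 0.00895), and than IFN-γ alone, at -0.56 (adjusted p = 0.00538). The added calls also include *Ctsd* with both against IFN-γ alone, at -0.50 (adjusted p = 0.0218), and the interaction of *Grn*, at 0.88 (adjusted p = 0.00589). Corrected log2 fold changes of *Grn* were -1.21 for *E. coli*, -1.06 for IFN-γ and -1.39 for the combination, and that of *Sqstm1* with both was 1.68. For *Gpnmb*, *Ctsa*, *Gm2a* and *Mitf*, whose counts are far from the ceiling, values with both stimuli stayed at 0.55, -1.05, 2.22 and 1.27. Corrected changes were thus larger for *Laptm5*, *Grn* and *Sqstm1* and close to the deposited ones for these 4.

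**Figure D4:**
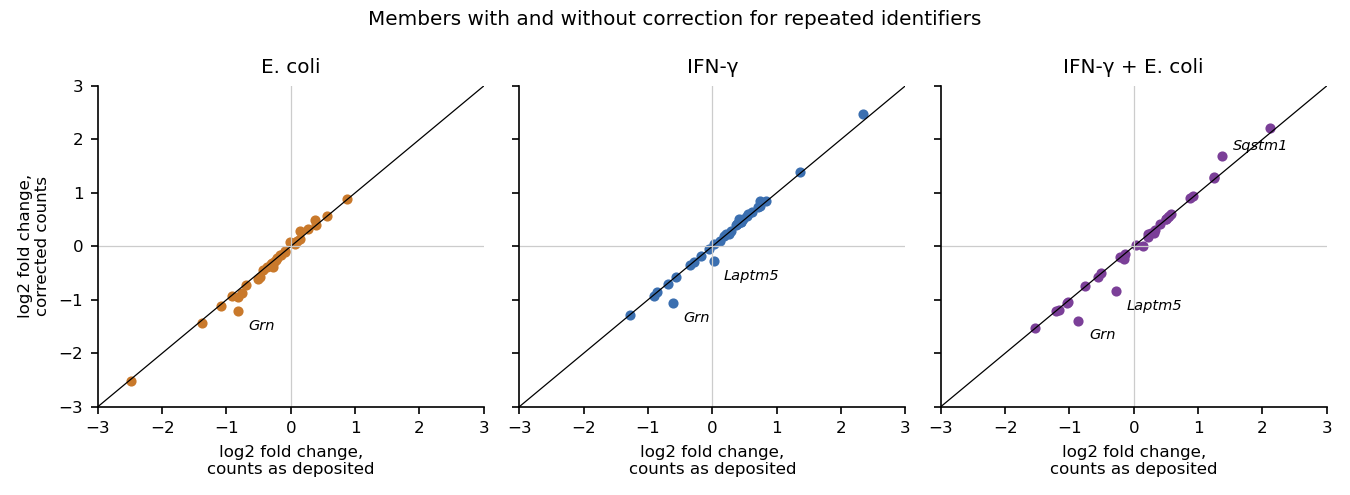
Log2 fold change of the 33 members with the counts as deposited (x axis) and after correction for repeated identifiers (y axis), for 3 stimuli against unstimulated a to c; each point is a gene, and the line marks equal values. Named genes moved by over 0.25, *Laptm5* from -0.27 to -0.84 with both stimuli.

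Beyond the members, 115 genes in 7 lists cover the rest of the lysosome and autophagy. With *E. coli* 13 of 104 tested were higher and 27 lower, with IFN-γ 16 and 24, with both 29 and 27, and with IL-4 9 and 7 of 108. Their median log2 fold changes were -0.07, 0.02, 0.03 and -0.07. The combination raised 24 and lowered 15 against *E. coli* alone, and raised 8 and lowered 7 against IFN-γ alone. Shares higher and lower were 12.5% and 26.0% with *E. coli*, 15.4% and 23.1% with IFN-γ, 27.9% and 26.0% with both, and 8.33% and 6.48% with IL-4. All genes tested gave 13.5% and 16.7%, 15.6% and 16.0%, 23.9% and 25.2%, and 5.97% and 4.35% in the same order, so the listed genes were near these rates apart from larger shares lower with *E. coli* and with IFN-γ. The lists below are to be read against these rates, and no difference from them was tested.

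The V-ATPase, the pump that acidifies the lysosome, had the most higher genes of the 7 lists with both stimuli. Of 15 subunits and accessory proteins tested, 2 were higher and 1 lower with *E. coli*, and 4 higher with IFN-γ. With both stimuli 10 were higher (66.7%, against 23.9% of all genes) and none lower by edgeR, by DESeq2 or at an unadjusted p under 0.05 in edgeR. *Atp6v0a1*, a membrane subunit, was at 0.97 ± 0.19 (SE, adjusted p = 0.000552) with *E. coli*, 0.84 ± 0.19 (SE, adjusted p = 0.00265) with IFN-γ and 1.27 ± 0.19 (SE, adjusted p = 2.07e-05) with both. *Atp6v1e1*, a subunit of the stalk, rose from 119 to 203 CPM with both (0.77 ± 0.11 SE, adjusted p = 8.50e-06). The median of the list with both was 0.36. With IL-4 the median was -0.27, and its difference from the first set was not tested. Of 16 tested, IL-4 lowered 2 (12.5%, against 4.35% of all genes), and 14 were not called. It raised none by edgeR, by DESeq2 or at an unadjusted p under 0.05 in edgeR. *Atp6v1e1* was 1 of those lowered, at -0.44 (adjusted p = 0.0432), a call lost without unstimulated d or f or IL-4 1, 2 or 3 (log2 -0.50 to -0.37 over all fits that left out a library).

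Among other lysosomal hydrolases, more genes were called lower than higher with each stimulus of the first set against unstimulated cells. Of 27 tested, *E. coli* lowered 11 and raised 2, IFN-γ lowered 9 and raised 4, and both together lowered 12 and raised 4. The shares lower were 40.7%, 33.3% and 44.4%, against 16.7%, 16.0% and 25.2% of all genes. Against *E. coli* alone the combination raised 6 and lowered 6 (22.2% each way, against 17.5% and 15.3% of all genes). *Manba*, the gene of β-mannosidase, was at -1.55 ± 0.26 (SE, adjusted p = 0.000155) with *E. coli* and -2.60 ± 0.32 (SE, adjusted p = 4.00e-06) with IFN-γ. With both it was also called lower, but as its level there, 1.68 ± 0.884 CPM, did not clear the floor of 3 counts, no fold is given. *Ctse*, an aspartic protease, fell with *E. coli* by 1.17 on the log2 scale, and *Acp5*, tartrate-resistant acid phosphatase, fell with IFN-γ by 2.83. *Scpep1*, a serine carboxypeptidase, was higher with the combination than with *E. coli* alone, at 2.28 ± 0.16 (SE, adjusted p = 2.25e-09). IL-4 raised 4 of 28 and lowered 1, with *Acp5* at 1.19 ± 0.18 (SE, adjusted p = 0.00227).

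Of 20 further membrane proteins tested in the first set, 4 were higher and 4 lower with *E. coli*, 3 and 5 with IFN-γ, and 4 and 6 with both. These counts are near the rates of all genes, of which 23.9% were higher and 25.2% lower with both stimuli. *Slc11a1*, a metal transporter of phagosomes that limits the growth of intracellular bacteria, was at 1.47 ± 0.14 (SE, adjusted p = 3.44e-07) with *E. coli*, 1.38 ± 0.14 (SE, adjusted p = 6.72e-07) with IFN-γ and 2.19 ± 0.15 (SE, adjusted p = 6.53e-10) with both. IL-4 lowered it by 1.43 on the log2 scale (adjusted p = 0.000189), and it was the 1 of 21 called lower there. *Tpcn1*, a channel of endolysosomes, fell with both at -1.97 ± 0.38 (SE, adjusted p = 0.000317).

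The list of mTORC1 and folliculin at the lysosome had 2 higher and 1 lower of 13 with *E. coli*, 1 and 2 with IFN-γ, and 2 and 2 with both (15.4% each way, against 23.9% and 25.2% of all genes). *Lamtor2* and *Lamtor4* encode parts of the Ragulator complex, which anchors the Rag GTPases that bring mTORC1 to the lysosome. *Lamtor2* was at -1.17 ± 0.15 (SE, adjusted p = 1.18e-05) with *E. coli*, -1.74 ± 0.17 (SE, adjusted p = 2.93e-07) with IFN-γ and -2.29 ± 0.19 (SE, adjusted p = 8.64e-09) with both. *Lamtor4* was at -1.78 ± 0.23 (SE, adjusted p = 8.44e-06) with IFN-γ and -2.28 ± 0.25 (SE, adjusted p = 4.41e-07) with both. *Fnip2*, a partner of folliculin, rose with *E. coli*, at 1.29 ± 0.31 (SE, adjusted p = 0.00320). IL-4 raised 1 of the 13, *Lamtor2* at 0.63 (adjusted p = 0.0343), a call lost without unstimulated d or IL-4 1, 2 or 3 (log2 0.52 to 0.72 over all fits that left out a library). By edgeR it lowered 0, with 2 at an unadjusted p under 0.05 and 1 by DESeq2.

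Genes that sort enzymes to the lysosome gave 2 higher and 2 lower of 9 with *E. coli*, 1 and 4 with IFN-γ, and 2 and 4 with both. The share lower was 44.4% with IFN-γ, against 16.0% of all genes, though of 9 genes only. *Nagpa*, which uncovers the mannose phosphate signal on lysosomal enzymes, was at -0.98 ± 0.20 (SE, adjusted p = 0.000959) with IFN-γ and -1.42 ± 0.21 (SE, adjusted p = 2.23e-05) with both. *Sort1*, the sorting receptor sortilin, was lower with *E. coli* at -0.61 ± 0.14 (SE, adjusted p = 0.00218) and with both at -0.90 ± 0.15 (SE, adjusted p = 6.09e-05). IL-4 raised 1 of the 9. Of 4 cathepsin inhibitors tested, 1 was higher and 2 lower with *E. coli* and with IFN-γ, 2 were higher and 2 lower with both, and 1 was higher and 1 lower with IL-4. *Cst7*, the gene of cystatin F, which inhibits cathepsins inside lysosomes, was at -1.18 ± 0.16 (SE, adjusted p = 2.22e-05) with *E. coli*, -3.19 ± 0.22 (SE, adjusted p = 1.81e-09) with IFN-γ and -3.48 ± 0.23 (SE, adjusted p = 5.15e-10) with both, while IL-4 raised it by 1.74 ± 0.15 (SE, adjusted p = 9.61e-05). *Stfa3*, a stefin, rose with *E. coli* at 2.64 ± 0.31 (SE, adjusted p = 3.78e-06), and *Cstb*, cystatin B, rose with both at 1.16 ± 0.15 (SE, adjusted p = 3.15e-06) and was the 1 called lower with IL-4, at -0.62 (adjusted p = 0.0192), lost without unstimulated f or IL-4 1, 2 or 3 (log2 -0.69 to -0.47 over all fits that left out a library).

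Among 16 autophagy genes tested, 6 were lower with *E. coli* (37.5%, against 16.7% of all genes) and none higher by edgeR, by DESeq2 or at an unadjusted p under 0.05 in edgeR. IFN-γ raised 2 and lowered 2, and the combination raised 5 and lowered 1. *Ulk1*, the kinase that starts autophagosome formation, fell 2.00-fold with *E. coli* (adjusted p = 1.21e-05) and had a called interaction of 0.82 ± 0.19 (SE, adjusted p = 0.0155). *Uvrag*, which acts in autophagosome maturation, was lower with *E. coli* at -0.82 ± 0.11 (SE, adjusted p = 1.05e-05) and with both at -0.94 ± 0.11 (SE, adjusted p = 1.30e-06). *Gabarapl1*, which joins the autophagosomal membrane, rose with IFN-γ at 0.56 ± 0.15 (SE, adjusted p = 0.00713) and was higher with the combination than with *E. coli* alone at 1.20 ± 0.15 (SE, adjusted p = 6.55e-06). IL-4 raised 2 of 17 and lowered 2, *Gabarapl1* among the latter at -0.79 (adjusted p = 0.0133), lost without IL-4 1 or 3 (log2 -0.93 to -0.72 over all fits that left out a library).

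Since MiT/TFE factors act through an E-box, the promoters of the members were searched for its letters. Sequences are from RefSeq on GRCm38.p6 and run from 250 bases before to 50 bases after each RefSeq transcript start, which can differ from the GENCODE M21 gene positions given above. For 29 of the 33 members there were 36 such windows of 300 bases, and *Galns*, *Ctsh*, *Ctsb* and *Asah1* had no entry. CACGTG, which reads the same on both strands, was in 8 of these windows (22.2%), those of *Ctsa*, *Ctsd*, *Ctsl*, *Gla*, *Glb1*, *Lamp1*, *Mcoln1* and *Naglu*, against 7.15% of all 32851 windows in the table. Its longer form TCACGTGA, which contains CACGTG, was in 4 (11.1%) against 0.974%. TCATGTG, the M-box searched on both strands, was in 4 (11.1%), those of *Ctsa*, *Ctss*, *Gla* and *Grn*, against 3.77%. A match is a description of letters and not a site of binding.

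The stretches that hold TCACGTGA are shown for every member in which it was found. With both stimuli *Gla* rose and *Ctsa* fell, while *Ctsd* (0.14, adjusted p = 0.418) and *Mcoln1* (0.22, adjusted p = 0.408) were not called. *Ctsa* has the motif 2 times, starting 13 bases before and 4 bases after a second RefSeq start that lies inside the gene as GENCODE places it, at chr2:164833740-164833804 on the plus strand. *Ctsd* has it 99 bases before its RefSeq start, at chr7:142387899-142387946 on the minus strand. In *Gla* it starts 228 and 195 bases before the RefSeq start, at chrX:134601173-134601253 on the minus strand, and so nearer to the GENCODE start, which lies further upstream. *Mcoln1* has it 46 bases before its RefSeq start, at chr8:3500453-3500500 on the plus strand. For *Ctsd* and *Mcoln1*, too, the GENCODE start is further upstream, and the motif lies after it. Each is written 5′ to 3′ on the strand of its gene, with TCACGTGA in capitals.
Ctsa: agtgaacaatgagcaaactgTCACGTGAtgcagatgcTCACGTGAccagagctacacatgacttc
Ctsd: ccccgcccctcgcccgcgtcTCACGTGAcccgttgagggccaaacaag
Gla: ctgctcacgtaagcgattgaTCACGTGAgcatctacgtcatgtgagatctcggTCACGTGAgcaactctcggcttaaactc
Mcoln1: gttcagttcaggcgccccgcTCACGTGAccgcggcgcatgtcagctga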

How the data were processed

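The 18 libraries of eosinophil RNA were analysed from the counts per Ensembl gene that the authors deposited. The submitters' notes name TopHat2 2.1.0, HTSeq 0.6.1, STAR 2.7.2a and fastp 0.20.1 on GRCm38, and both CEL-Seq and RNA-seq libraries; which libraries each applied to, and whether molecular identifiers were collapsed, is not given in the sources used here. Reads outside any gene were 18.9% to 37.6% of reads in the 12 libraries that report them. Software was limma 3.58.1, DESeq2 1.42.0 and edgeR 4.0.16 in R 4.3.3. Genes passing filterByExpr were kept, scaled by TMM and tested by edgeR's quasi-likelihood test, in 1 model of 12 libraries and 1 of 6, with Benjamini-Hochberg adjustment over all genes tested; standard errors come from the fold change and its F statistic. The biological coefficient of variation was 0.118 and 0.182. Members are named by role, with a value for each library where a call reached 2-fold or an interaction was called; from each other list, the rule allows the 2 called genes with the largest changes in a comparison, and of these, after their values were seen, ones whose call held with each library left out are described, with calls that did not hold marked as lost. Members and lists were chosen with earlier results of these data known. Alternatives were DESeq2's size factors, DESeq2, no filter, at least 10 counts in every library, a prior count of 2, an added demand for a 2-fold change, each library left out, only the 6 libraries compared, replicate number as a block, 1 model of all 18 libraries, pooled controls, and counts corrected for repeated identifiers. The fits were tested on simulated data, but the outcome is not given here and no result rests on it. Near-identical stretches shared with transcripts of other genes were sought at 95% identity over 200 bases. No library was left out of the main results.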

Additional observations from a re-analysis of the deposited data

Results flagged for a closer look

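The effect of *E. coli* differed with and without IFN-γ, by the interaction test, for 3 members. For *Gpnmb*, whose interaction was named in the rule that chose the members, the log2 effect with IFN-γ minus that without was 3.19 (adjusted p = 3.68e-06). It was 1.05 (adjusted p = 0.0169) for *Ctsa* and -0.79 (adjusted p = 0.0418) for *Gm2a*, calls that were each lost when certain single libraries were left out, as given with the results.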

How the results depend on the processing

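Of 233 alternative values of the member counts and of the *Gpnmb* interaction, 181 stayed within 1.5 times the original count or on the same side of the threshold, and 52 of the counts moved further. A further 26 results on single members were followed, namely the calls of 2-fold or more and the interactions of *Ctsa* and *Gm2a*. Of their 394 alternative values, 373 kept direction and call, 21 kept direction only, and none changed sign. Among all 64 member calls against unstimulated cells, pooled controls turned the sign of 4, as given with the results. The *Gpnmb* interaction passed the threshold in every alternative. With all 6 unstimulated libraries pooled, the members called higher numbered 2 with IFN-γ and 5 with both, 1 of the 5 not called before. For members lower with both than with IFN-γ, DESeq2 and the fit of only the 6 libraries compared gave 1, no filter gave 4 and the corrected counts, an alternative chosen after seeing the data, gave 4. Interactions below 0 numbered 2 without the filter and 0 in the model of all 18 libraries by edgeR. Demanding a 2-fold change on top of the adjusted p left, higher and lower, 0 and 3 with *E. coli*, 2 and 1 with IFN-γ, 4 and 5 with both, 7 and 0 against *E. coli*, 0 and 0 against IFN-γ, 0 and 2 with IL-4, and 0 interactions below 0, which follows from the added condition. Otherwise the cause was not tested.

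With the replicate number as a block, 7 members were lower with both than with IFN-γ. The numbers do not pair the samples: correlations of same-numbered libraries with both and with *E. coli* were 0.0706, 0.0986 and 0.163, with both and with IFN-γ -0.0450, 0.212 and 0.331, and not every library correlated best with its own number.

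Leaving out each library in turn gave, for members higher and lower, 1 to 4 and 8 to 12 with *E. coli*, 8 to 15 and 5 to 6 with IFN-γ, 9 to 13 and 7 to 9 with both, 11 to 18 and 2 to 3 against *E. coli*, 1 to 2 and 1 to 4 against IFN-γ, 1 to 1 and 4 to 9 with IL-4, and 1 to 7 above and 0 to 2 below 0 for interactions. Shares of all genes called in these fits are not given, so the counts are not set against them. The *Gpnmb* interaction ran from 2.96 to 3.43. Where a group was left with 2 libraries, its spread was taken to be like that of the others. Depth limits the lowest members most: 3 counts are 1.10 to 1.97 CPM in the first set.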
